A study of Mus musculus with 6 samples.

Results

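The genes described here encode the extracellular matrix and the fibrosis machinery of the kidney. They are 38 genes given by name: collagen chains, matrix glycoproteins and proteoglycans, TGF-beta ligands, matrix proteases and their inhibitors, lysyl oxidases, and genes of the smooth muscle and fibroblast cells that make matrix. All 38 were found by symbol among the 24346 genes of the deposited tables, and 28 of them reached the level needed for a test. The data are RNA-seq of renal cortex from C57BL/6 mice. In 3 samples the food of the mice, rich in fat, cholesterol and bile salt and used to induce steatohepatitis (the HF/HC/HS/BA diet), also held tofogliflozin, an inhibitor of the glucose transporter SGLT2, for 8 weeks (labelled NASHTofo). The other 3 samples came from mice on that diet without the drug for 8 weeks (labelled NASH). Both groups were therefore fed the steatohepatitis diet, and mice on standard food were not analysed here. The labels give no age or sex for the animals and no dose of the drug.

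The interstitium of the cortex holds fibroblasts and pericytes, which carry the PDGF receptors and secrete fibrillar collagens, and the tubules and glomeruli rest on basement membranes built on type IV collagen. In kidney fibrosis TGF-beta, released from a latent complex in the matrix, drives fibroblasts to become contractile myofibroblasts that express smooth muscle actin and deposit collagen types I and III and fibronectin. Lysyl oxidases cross-link that collagen, metalloproteinases cut matrix proteins, and the tissue inhibitors of metalloproteinases (TIMPs) restrain them. The question addressed is whether the expression of these genes differed with tofogliflozin.

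The values are FPKM, fragments scaled to transcript length and library size, so levels may be set side by side between genes. From the steps between low values each library was estimated to hold about 7710000 to 9980000 fragments, the most in tofogliflozin replicate 1. By this estimate 1 FPKM over 1 kb rests on about 7.71 to 9.98 fragments. These figures, and the fragments given for single genes below, hold only if FPKM was scaled to each library's own total. How libraries were scaled is not given in the sources used. Markers of proximal tubule, which makes up most of the cortex, summed to 3389 to 3553 FPKM over 7 genes in the tofogliflozin libraries and 3571 to 4005 FPKM in the diet libraries. Markers of collecting duct summed to 233 to 294 FPKM with tofogliflozin and to 173 to 209 FPKM on the diet alone, over 5 genes, and those of distal convoluted tubule to 383 to 440 FPKM, against 342 to 379 FPKM, over 2 genes. The summed levels of these 3 tubule segments did not overlap between the groups, the proximal tubule sum being lower and the others higher with tofogliflozin. Those of thick ascending limb, over 2 genes, overlapped, at 1797 to 1896 FPKM with tofogliflozin and 1597 to 2198 FPKM on the diet alone. Adipocyte markers, 5 genes of which 0 reached the level for a test, did not overlap (0.16 to 0.33 and 0.45 to 6.62 FPKM, tofogliflozin and diet). Most of the proximal tubule sum was Slc34a1 (2186 ± 92.2 and 2499 ± 189 FPKM, tofogliflozin and diet), whose own groups overlapped. Of the 7 genes, 3 had a log2 change above 0 and 4 below. Slc5a12 was higher without overlap (161 ± 25.4 against 118 ± 8.58 FPKM). The part of tissue sampling in the members' values was not tested. Markers of fibroblasts and pericytes summed to 26.1 to 45.1 FPKM with tofogliflozin and to 29.1 to 35.3 FPKM on the diet alone, over 11 genes. In whole tissue, fewer cells of a type and less RNA per cell cannot be told apart.

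No matrix or fibrosis gene passed the test over all genes. Of the 28 tested, 0 were called (limma on log2(FPKM + 1), two-sided, Benjamini-Hochberg adjusted p under 0.05), where 0.253% of the 12248 genes tested were called, 0.196% higher and 0.0572% lower. At an unadjusted p under 0.05 there was 1, Timp3, where 13.1% of all genes tested reached that level. Below 0 lay the log2 change of 17 of the 28, with a median of -0.06, and for all genes tested 50.3% lay below 0. Of the 28 tested, Timp3 and Col4a1 were those whose groups did not overlap, both lower with tofogliflozin. Of all genes tested, 18.5% had groups that did not overlap, 9.63% on the higher and 8.86% on the lower side. Among the 10 members under the filter, Tgfb2 (higher) and Mmp2 (lower) also had groups that did not overlap. The share of all genes under the filter without overlap was not counted, so these members have no background beside them.

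Promoter and start sequences are shown for 4 members that the results turn on and for the collagen IV pair. Timp3 had the smallest p, Tgfb1 and Tgfb2 are the ligands with the widest differences, and Col3a1 is a fibrillar collagen. The bases are those of RefSeq (GRCm38.p6, the same assembly as the mm10 build of the files), taken 5′ to 3′ on the gene's strand, before the gene's start and outside every exon annotated in GENCODE M21. The Tgfb2 stretch was cut where it met an annotated exon. It ends at 186706157 and so does not reach the gene's start at 186705989. Capitals mark the letters CAGAC, or GTCTG where the match is on the other strand, the half-site read by the Smad proteins that carry the TGF-beta signal.
Timp3, chr10:86300162-86300371, plus strand: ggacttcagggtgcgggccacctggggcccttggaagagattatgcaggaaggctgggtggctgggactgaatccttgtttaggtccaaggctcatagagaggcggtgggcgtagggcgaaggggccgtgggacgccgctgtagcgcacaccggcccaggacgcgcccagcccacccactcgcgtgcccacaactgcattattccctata
Tgfb1, chr7:25686752-25687001, plus strand: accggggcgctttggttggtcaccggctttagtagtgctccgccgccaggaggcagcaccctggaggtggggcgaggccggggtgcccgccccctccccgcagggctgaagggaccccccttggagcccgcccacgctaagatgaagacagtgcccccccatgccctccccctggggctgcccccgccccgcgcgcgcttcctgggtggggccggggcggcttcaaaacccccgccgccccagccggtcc
Tgfb2, chr1:186706157-186706239, minus strand: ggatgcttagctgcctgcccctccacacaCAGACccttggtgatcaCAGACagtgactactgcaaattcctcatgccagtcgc
Col3a1, chr1:45311288-45311537, plus strand: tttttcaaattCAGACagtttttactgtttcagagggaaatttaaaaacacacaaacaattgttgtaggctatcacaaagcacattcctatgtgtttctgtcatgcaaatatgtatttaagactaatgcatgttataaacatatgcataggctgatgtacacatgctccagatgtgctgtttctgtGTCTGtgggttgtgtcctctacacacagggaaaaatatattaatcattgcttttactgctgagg
The Col4a1 and Col4a2 genes lie head to head, and their first exons share 22 bases at chr8:11312805-11312826, printed on the plus strand.
Col4a1-Col4a2 shared start: agtgcgcgggcggcgtctccaa

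Of the 38 members, 24 had a RefSeq window of 250 bases before the start, 27 windows in all. CAGAC or its complement stood in 13 of the 27 (48.1%), and in 42.2% of all 32851 windows of that length. The CArG box of smooth muscle genes, searched in its strict form, stood in 0 of the members' windows and in 1.47% of all windows. These matches describe the letters of the windows and say nothing of binding.

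Among the fibrillar collagens, which form the banded fibres of scar tissue, the tofogliflozin libraries spread around the diet libraries. Col1a1, the major chain of type I collagen, was at 1.93, 1.54 and 0.949 FPKM with tofogliflozin and at 1.51, 3.35 and 1.36 FPKM on the diet alone. The groups overlapped, and the highest library, diet replicate 2, stood well above the other 5. Its partner chain Col1a2 was at 6.23, 5.54 and 2.63 FPKM with tofogliflozin and at 4.53, 5.58 and 4.4 FPKM on the diet alone. Col3a1, the chain of type III collagen, was at 3.45, 2.35 and 1.24 FPKM with tofogliflozin, against 1.84, 2.55 and 2.05 FPKM. In both genes tofogliflozin replicate 1 was the highest of all libraries and tofogliflozin replicate 3 the lowest. The log2 changes were -0.28 for Col1a1 (95% interval -0.87 to 0.31), -0.06 for Col1a2 (-0.62 to 0.49) and 0.04 for Col3a1 (-0.50 to 0.58). Each of these 3 turned direction when 1 library was left out. Col5a2, a chain of type V collagen that sets fibre width, was at 7.04 ± 0.872 FPKM with tofogliflozin and 8.12 ± 0.531 FPKM without it (mean ± SD, n = 3 each; limma adjusted p = 0.493).

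The type IV chains were measured with the least spread. Col4a1 was at 30.5, 30.5 and 27.1 FPKM with tofogliflozin and at 32.1, 31.2 and 33.2 FPKM on the diet alone, so that the groups did not overlap, although by less than 1 FPKM. Col4a2, which assembles with Col4a1 into the same basement membrane network, was at 22.4, 21.9 and 19.4 FPKM, against 23.9, 22.0 and 24.4 FPKM on the diet alone. Its groups overlapped. Their log2 changes were -0.13 (95% interval -0.30 to 0.04) and -0.14 (-0.33 to 0.05), with limma adjusted p of 0.511 and 0.533. The Col4a1 value stood between 1.35 and 1.42 times that of Col4a2 in every library, and the shared start of the pair is printed above. Col15a1, a collagen of the zone beneath the basement membrane, was at 1.85 ± 0.645 and 2.60 ± 0.613 FPKM (tofogliflozin and diet), and Col18a1, the source of endostatin, at 29.9 ± 2.1 and 29.6 ± 2.35 FPKM.

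Type VI collagen forms beaded filaments around cells. Col6a1 was at 4.27, 3.52 and 1.68 FPKM in the tofogliflozin libraries and at 2.14, 2.82 and 1.94 FPKM in the diet libraries. Tofogliflozin replicates 1 and 2 lay above all diet libraries and replicate 3 below them. The log2 change was 0.29 (95% interval -0.27 to 0.84; limma adjusted p = 0.666), with 0.57 without tofogliflozin replicate 3 (adjusted p = 0.397) and 0.087 without tofogliflozin replicate 1 (adjusted p = 0.946). Col6a2 and Col6a3 showed the same low value in that library, at 0.797 and 0.650 FPKM, and had log2 changes of 0.06 and -0.06.

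**Figure D1:**
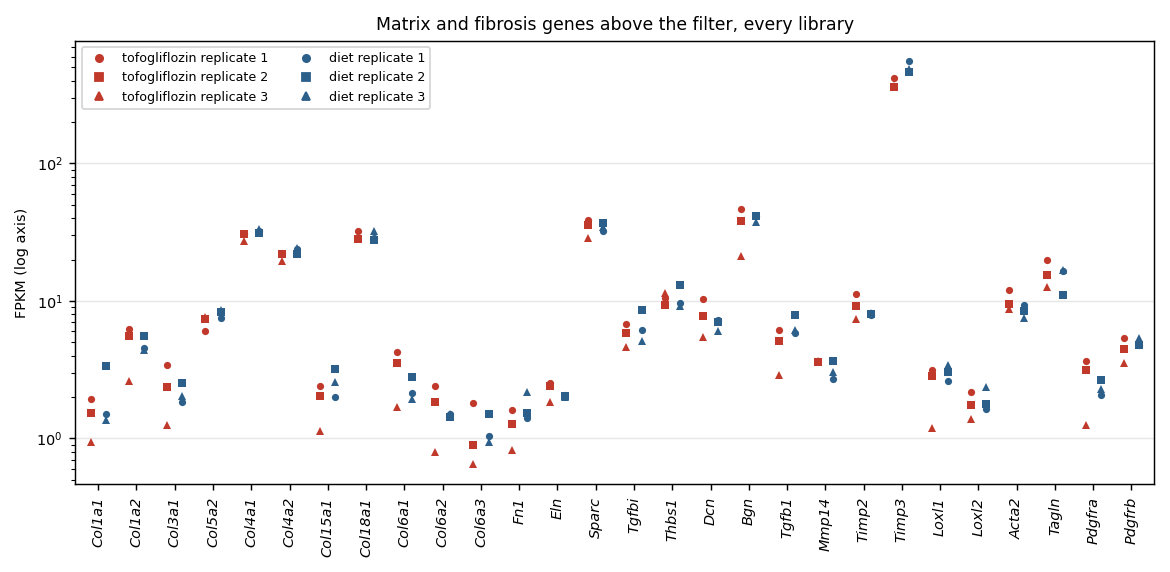
FPKM on a log axis of the 28 matrix and fibrosis genes above the filter, with each tofogliflozin library in red left of each diet library in blue and the replicate shown by the symbol. Timp3 stands far above the rest, between 362 and 558 FPKM, and the red triangles of tofogliflozin replicate 3 lie at the bottom for 21 of the 28 genes.

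Of the matrix glycoproteins, Fn1, which encodes the fibronectin that cells grip through integrins, was at 1.60, 1.27 and 0.821 FPKM with tofogliflozin and at 1.41, 1.52 and 2.18 FPKM on the diet alone. The groups overlapped, and the log2 change was -0.28 (95% interval -0.69 to 0.13; limma adjusted p = 0.548). It was -0.46 with a pseudocount of 0.1 and -0.14 without tofogliflozin replicate 3. Sparc, a collagen-binding protein, was far more abundant, at 34.4 ± 5.18 FPKM with tofogliflozin and 34.6 ± 2.25 FPKM without it. Thbs1, which encodes thrombospondin 1, an activator of latent TGF-beta, was at 10.5 ± 1.03 and 10.6 ± 2.04 FPKM (tofogliflozin and diet). Eln, the gene of elastin, was at 2.26 ± 0.376 and 2.02 ± 0.0391 FPKM. Tgfbi, a TGF-beta-induced matrix protein, was at 5.78 ± 1.11 FPKM with tofogliflozin and 6.61 ± 1.83 FPKM without it. None of these 5 genes had an unadjusted p under 0.05.

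Among the proteoglycans, Bgn, the gene of biglycan, was at 46.6, 38 and 21.1 FPKM with tofogliflozin and at 41.2, 41.2 and 37.6 FPKM on the diet alone. The diet libraries were close together while the tofogliflozin libraries stood on both sides of them, and the log2 change of -0.25 (95% interval -0.81 to 0.31) became 0.07 without tofogliflozin replicate 3. Dcn, the gene of decorin, which binds collagen fibres and TGF-beta, was at 10.3, 7.80 and 5.44 FPKM with tofogliflozin, against 7.22, 7.08 and 6.09 FPKM. Here too tofogliflozin replicate 1 was the highest and replicate 3 the lowest of the 6 libraries (log2 change 0.15, 95% interval -0.28 to 0.57).

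Tgfb1, the main TGF-beta ligand of kidney fibrosis, was the tested member with the largest log2 change in size, and it did not pass. It was at 6.18, 5.13 and 2.91 FPKM in the tofogliflozin libraries and at 5.89, 7.90 and 6.14 FPKM in the diet libraries. Tofogliflozin replicate 1 lay among the diet libraries, and the other tofogliflozin libraries lay below them. The log2 change was -0.45 ± 0.22 (SE; 95% interval -0.95 to 0.05; limma adjusted p = 0.428). It was -0.20 without tofogliflozin replicate 3 (adjusted p = 0.772) and -0.63 without tofogliflozin replicate 1 (adjusted p = 0.390), so the size of the change rests on which of these libraries is kept. Myeloid cells also express Tgfb1. The 10 macrophage marker genes summed to 118, 141 and 91.3 FPKM with tofogliflozin and to 162, 300 and 110 FPKM on the diet alone, lowest in tofogliflozin replicate 3 and highest in diet replicate 2, as Tgfb1 was. Their part in the Tgfb1 value was not tested.

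Tgfb2 and Tgfb3, the ligands better known from development, stayed under the filter of 1 FPKM in at least 3 libraries. Tgfb2 was at 0.541, 0.230 and 0.552 FPKM with tofogliflozin, against 0.130, 0.0775 and 0.119 FPKM on the diet alone. These values correspond to about 27.6, 9.20 and 24.5 fragments in the tofogliflozin libraries and 5.11, 3.07 and 5.11 fragments in the diet libraries, taking its longest transcript. All tofogliflozin libraries lay above all diet libraries, the side opposite to Tgfb1. The exact two-sided permutation p over the 6 samples was 0.1, the smallest that 3 against 3 can give. Any groups of 3 without overlap give that p, so it adds nothing to the lack of overlap. When genes of all levels were tested, the log2 change of Tgfb2 was 0.37 (95% interval 0.14 to 0.60; limma adjusted p = 0.282). Tgfb3 was at 0.541, 0.617 and 0.458 FPKM with tofogliflozin and at 0.516, 0.624 and 0.507 FPKM on the diet alone.

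Timp3 was the most abundant of the 38 genes and the one with the smallest p. It encodes a TIMP that stays bound to the matrix and inhibits metalloproteinases and ADAM proteases. It alone made up 57.7% to 63.2% of the summed FPKM of the 38 genes in the tofogliflozin libraries and 62.7% to 67.8% in the diet libraries. Its level was 418, 362 and 365 FPKM with tofogliflozin, against 558, 464 and 487 FPKM on the diet alone, lower in 3 of 3 tofogliflozin libraries. The log2 change was -0.40 ± 0.10 (SE; 95% interval -0.63 to -0.16), with an unadjusted p of 0.00426 and an adjusted p of 0.174 (limma). It did not pass over all genes, and under the 16 other settings the adjusted p ran from 0.0898 to 0.507.

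Timp3 lies on chromosome 10 from 86300372 to 86349506 (GENCODE M21, GRCm38), plus strand, inside Syn3 on the minus strand, and 1733 exon bases are annotated in both. The use of strand in counting is not given in the sources used here, so reads of the pair cannot be told apart. Syn3 was at 10.4, 8.70 and 8.71 FPKM with tofogliflozin and at 8.36, 9.08 and 8.81 FPKM on the diet alone, small beside the level of Timp3. Of the 38 members, 16 share exon bases with another annotated gene, 13 of them on the opposite strand only.

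Of the other TIMPs and the metalloproteinases, Mmp2 alone had groups that did not overlap. Timp2, which also takes part in the activation of pro-Mmp2 by Mmp14, was at 11.3, 9.13 and 7.39 FPKM with tofogliflozin and at 7.92, 8.06 and 8.12 FPKM on the diet alone, so the groups overlapped. Mmp14, the membrane-bound collagenase, was at 3.63 ± 0.0151 FPKM with tofogliflozin and 3.14 ± 0.488 FPKM without it. Timp1, the TIMP most often used as a marker of fibrosis, was listed at 0.447, 0.570 and 0 FPKM with tofogliflozin and at 1.03, 0.769 and 0 FPKM on the diet alone. Its short transcript makes this about 3.94 and 3.94 fragments in the first pair of libraries and 6.99 and 5.25 in the second, too few for a statement on direction. Mmp2, the gelatinase, was at 0.447, 0.733 and 0.403 FPKM with tofogliflozin, against 0.867, 0.864 and 0.834 FPKM. All tofogliflozin libraries lay below all diet libraries, at about 10.8 to 17.6 and 20.6 to 21.6 fragments. The exact two-sided permutation p was 0.1, which any groups of 3 without overlap give, so it adds nothing to the lack of overlap. Limma over genes of all levels gave an adjusted p of 0.349.

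**Figure D2:**
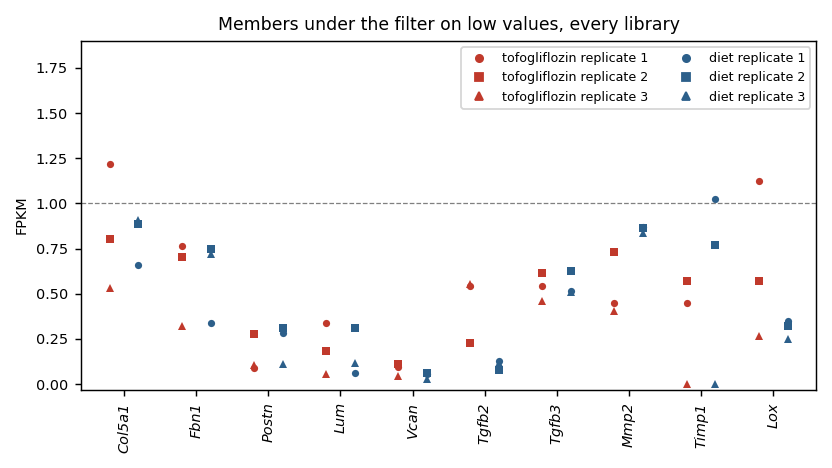
FPKM in every library of the 10 members under the filter on low values, tofogliflozin in red left of diet in blue, with a dashed line at 1 FPKM. The groups stand apart for Tgfb2, higher with tofogliflozin, and for Mmp2, lower with tofogliflozin, and overlap for the other members.

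The other genes under the filter were Col5a1, Fbn1, Postn, Lum, Vcan and Lox. Postn, which encodes periostin and is raised in injured kidney, was at 0.0916 to 0.276 FPKM with tofogliflozin and 0.110 to 0.311 FPKM on the diet alone, and Vcan, the gene of versican, at most at 0.112 FPKM in any library. Col5a1 was at 0.533 to 1.22 and 0.658 to 0.906 FPKM (tofogliflozin and diet), Fbn1, the gene of fibrillin 1, at 0.322 to 0.766 and 0.338 to 0.747 FPKM, and Lum, the gene of lumican, at 0.0556 to 0.339 and 0.0626 to 0.312 FPKM. Lox, the founding lysyl oxidase, was at 1.12, 0.569 and 0.268 FPKM with tofogliflozin, against 0.350, 0.323 and 0.252 FPKM, and its groups overlapped. Its relatives Loxl1 and Loxl2 passed the filter. Loxl1 was at 2.39 ± 1.05 FPKM with tofogliflozin and 3.03 ± 0.408 FPKM without it, and Loxl2 at 1.77 ± 0.403 and 1.93 ± 0.376 FPKM (limma adjusted p = 0.635 and 0.861).

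Acta2, which encodes the smooth muscle actin of vessel walls and myofibroblasts, was at 12.0, 9.51 and 8.74 FPKM with tofogliflozin and at 9.40, 8.48 and 7.54 FPKM on the diet alone. The groups overlapped (log2 change 0.22, 95% interval -0.07 to 0.51; limma adjusted p = 0.509). Tagln, an actin-binding protein of the same cells, was at 16.0 ± 3.67 FPKM with tofogliflozin and 14.7 ± 3.26 FPKM without it. Pdgfra, the receptor that marks fibroblasts, was at 3.68, 3.13 and 1.26 FPKM, against 2.07, 2.67 and 2.31 FPKM on the diet alone. Tofogliflozin replicates 1 and 2 were above all diet libraries and replicate 3 below them, the pattern of Col6a1. Pdgfrb, found on pericytes and mesangial cells, was at 4.45 ± 0.919 and 4.96 ± 0.323 FPKM (tofogliflozin and diet; limma adjusted p = 0.702).

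**Figure D3:**
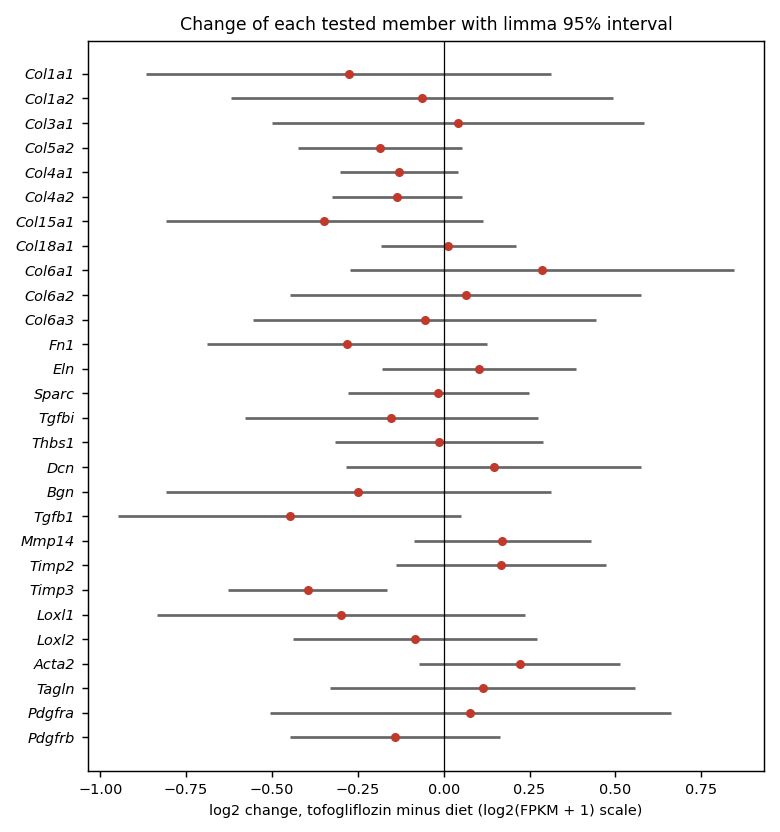
Log2 change (tofogliflozin minus diet, on the log2(FPKM + 1) scale) of each of the 28 tested members, with limma's 95% interval as a line. The interval of Timp3 alone leaves 0, and the half-widths run from 0.17 to 0.59.

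The intervals show what size of change these 3 against 3 libraries could have missed. On the log2(FPKM + 1) scale, which shrinks the changes of low genes, all 28 lay within 1 unit of 0 and 11 within 0.5, among them Col4a1, Col4a2, Col18a1, Sparc, Eln and Thbs1. With a pseudocount of 0.1 the counts were 21 and 6, and the interval of Col1a1 ran from -1.28 to 0.47. On the scale used here the interval of Col1a1 reached -0.87 on the lower side, and that of Pdgfra ran from -0.51 to 0.66. A p above the threshold does not show that the groups were alike.

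Many members differed among the libraries of the tofogliflozin group, and in the same order. Tofogliflozin replicate 3 was the lowest of the 6 libraries for 21 of the 28 tested members, where it was the lowest for 17.0% of all genes tested. Tofogliflozin replicate 1 was the highest for 14 of the 28, and for 14.2% of all genes. In 23 of the 28 members replicate 1 exceeded replicate 2 and replicate 2 exceeded replicate 3, an order seen in 14.8% of all genes. The mean deviation of the 28 from their own gene means was 0.21, 0.02 and -0.33 on the log2 scale in tofogliflozin replicates 1, 2 and 3 and -0.02, 0.11 and 0.01 in diet replicates 1, 2 and 3. Over all genes tested it lay within 0.0041 of 0 in each library.

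The size of the low value in tofogliflozin replicate 3 differed between members. Bgn deviated by -0.77, Tgfb1 by -0.73, Loxl1 by -0.72, Col1a2 by -0.65 and Pdgfra by -0.60 in that library. Col5a2, Thbs1 and Mmp14 did not share the low value, with deviations of 0.03, 0.12 and 0.09. The median SD of the members on the log2 scale was 0.27 among the tofogliflozin libraries and 0.14 among the diet libraries, and 21 of the 28 had the larger SD with tofogliflozin, against 39.8% of all genes. The 11 fibroblast and pericyte markers, 2 of which are members, summed to 45.1, 33.4 and 26.1 FPKM in tofogliflozin replicates 1, 2 and 3. The widest range among them was that of Tcf21, at 17.1, 9.92 and 5.99 FPKM. Rgs5 (7.27, 7.12 and 7.06 FPKM) and Cspg4 (2.34, 2.59 and 2.52 FPKM) changed little. The mean deviation of the 9 tested genes of this list was 0.293, -0.005 and -0.223. Markers of podocytes summed to 106, 102 and 106 FPKM and those of endothelium to 134, 130 and 117 FPKM in the same libraries. Of the tofogliflozin libraries, replicate 3 was also the lowest for the immune and red blood cell lists. Macrophage markers summed to 118, 141 and 91.3 FPKM and lymphocyte markers to 4.18, 4.34 and 1.83 FPKM. Red blood cell markers summed to 71.4, 74.8 and 17.5 FPKM. In diet replicates 1, 2 and 3 these lists summed to 162, 300 and 110, to 5.90, 5.76 and 4.04 and to 8.09, 38.9 and 110 FPKM. Red blood cell markers were thus lower still in diet replicate 1. Only 1 of the 8 lymphocyte genes passed the filter. The part of the amount of interstitial, immune or blood cells in these values was not tested.

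**Figure D4:**
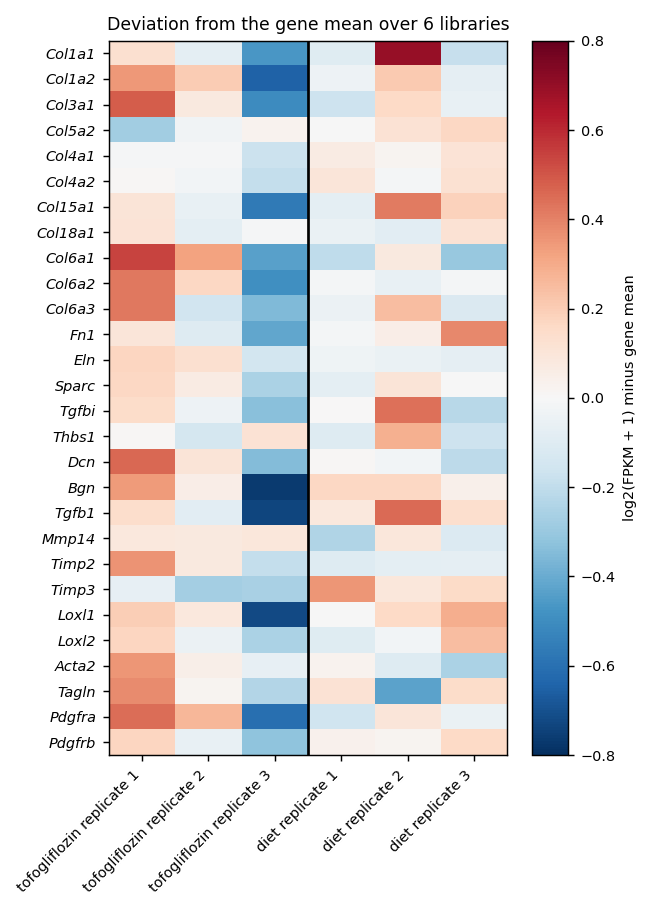
Deviation of each tested member from its own mean over the 6 libraries (log2(FPKM + 1), red above and blue below the mean), tofogliflozin libraries left of the line and diet libraries right of it. The column of tofogliflozin replicate 3 is blue for most genes, with a mean of -0.33, and that of tofogliflozin replicate 1 mostly red, with a mean of 0.21.

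With 1 library left out, the balance of the members moved with it. Without tofogliflozin replicate 1, 23 of the 28 log2 changes were negative (median -0.17), and Tgfb1 also had an unadjusted p under 0.05 (0.0178). Without tofogliflozin replicate 3, 12 of the 28 were negative (median 0.05), and 5 had an unadjusted p under 0.05, these being Timp3 (lower) and Col6a1, Dcn, Timp2 and Pdgfra (higher). Without diet replicate 2, 13 were negative (median 0.01). None passed over all genes in these cases (0 in each; limma). The share of all genes with an unadjusted p under 0.05 was not counted with a library left out. With all 6 libraries it was 13.1%. The members at that level are therefore not read as a result about the list.

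The wider matrix pathway was read from 8 lists of 194 genes outside the members, of which 129 were tested. None passed over all genes (0; limma). At an unadjusted p under 0.05, 6 were higher and 9 lower with tofogliflozin, where 6.70% and 6.39% of all genes were. In this and the next paragraph up to 3 genes of smallest p are named from each list. The median log2 change of the 129 was 0.00.

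Pcolce2, which enhances the cleavage of procollagen, was at 1.74, 2.57 and 2.13 FPKM with tofogliflozin, against 0.211, 0.702 and 0.323 FPKM on the diet alone, so that all tofogliflozin libraries lay above all diet libraries. It passed the filter only through the tofogliflozin libraries, so its test in the filtered set is not used. With genes of all levels tested its log2 change was 1.16 (limma adjusted p = 0.101). In the same list of 17 tested collagen-processing genes, P4ha1, a prolyl hydroxylase subunit that stabilises the collagen helix, was at 10.5 ± 0.664 and 13.5 ± 0.337 FPKM (tofogliflozin and diet), with an adjusted p of 0.137. Plod1, a lysyl hydroxylase, was at 12.5 ± 0.223 and 14.1 ± 0.658 FPKM.

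Of 24 tested genes of TGF-beta receptors, latency and Smad signalling, Itgb6 had the smallest p. It encodes the beta chain of the integrin αvβ6, which frees TGF-beta from its latent complex in epithelium. Itgb6 was at 7.02, 6.08 and 7.99 FPKM with tofogliflozin, against 12.4, 11.7 and 21.7 FPKM on the diet alone, with no overlap (log2 change -0.97, 95% interval -1.46 to -0.48; limma adjusted p = 0.124). Smad3, the transducer of the fibrotic TGF-beta signal, was at 11.7 ± 1.65 FPKM with tofogliflozin and 9.02 ± 1.24 FPKM without it, and the inhibitory Smad6 at 4.23 ± 0.247 and 3.38 ± 0.445 FPKM. Among 10 tested TGF-beta targets, Cyr61 was at 15.1 ± 3.36 FPKM with tofogliflozin and 22.3 ± 2.49 FPKM on the diet alone, with no overlap. Its close relative Ctgf, a classical fibrosis marker, was at 40.0 ± 13.8 FPKM with tofogliflozin, against 26.0 ± 3.90 FPKM, and its groups overlapped. The 2 genes thus had log2 changes of opposite sign, -0.55 and 0.55, and neither passed (limma adjusted p = 0.201 and 0.385).

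Of 20 tested basement membrane glycoproteins, Lama1, a laminin chain, was at 2.84 ± 0.279 FPKM with tofogliflozin and 4.45 ± 0.637 FPKM without it (limma adjusted p = 0.148). Fras1 was at 2.83 ± 0.270 and 3.46 ± 0.193 FPKM and Nid2, a nidogen, at 4.54 ± 0.152 and 5.34 ± 0.586 FPKM (tofogliflozin and diet). Of 8 other tested collagens Col16a1 was at 1.76 ± 0.491 and 2.71 ± 0.212 FPKM, Col27a1 at 32.4 ± 9.10 and 27.1 ± 1.53 FPKM and Col4a4, of the glomerular basement membrane, at 34.4 ± 2.37 and 36.1 ± 1.07 FPKM. Of 18 other proteases and inhibitors Plat, the tissue plasminogen activator gene, was at 40.3 ± 6.37 and 29.2 ± 4.84 FPKM, Adamts1 at 7.17 ± 1.28 and 9.15 ± 0.525 FPKM and Htra1 at 63.1 ± 1.98 and 75.7 ± 13.4 FPKM. Of 12 matrix receptors Ddr1, a collagen receptor kinase, was at 44.9 ± 2.34 and 52.4 ± 3.06 FPKM, and the syndecan genes Sdc1 and Sdc4 at 2.92 ± 0.311 and 3.67 ± 0.156 FPKM and at 114 ± 8.23 and 129 ± 6.32 FPKM. Of 20 other glycoproteins and proteoglycans Mfap2, a microfibril protein gene, was at 1.80 ± 0.423 and 1.08 ± 0.388 FPKM, Igfbp5 at 62.8 ± 8.97 and 76.0 ± 6.27 FPKM and Podn at 5.46 ± 0.493 and 6.79 ± 1.16 FPKM. The smallest adjusted p in these last 5 lists was 0.148.

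**Figure D5:**
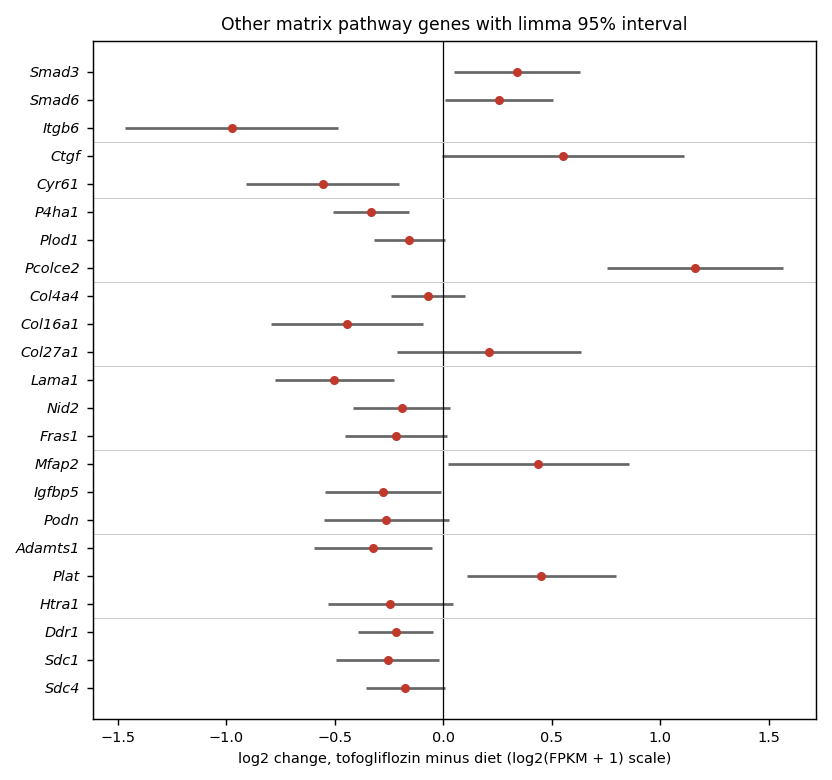
Log2 change (tofogliflozin minus diet) of the pathway genes of smallest p from each of 8 lists, with limma's 95% interval, lists being divided by thin lines. Itgb6 lies at -0.97 and Pcolce2, which passed the filter only through the tofogliflozin libraries, at 1.16, and no gene shown passed over all genes tested.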

How the data were processed

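RNA-seq libraries of renal cortex of mice were used, 6 in all and 3 per group, with groups and replicate numbers from the sample titles. The authors deposited 1 FPKM table per library. Per the submitters' processing notes Cuffdiff 2.2.1, Bowtie2 2.2.8, TopHat2 2.1.1 and SAMtools 0.1.18 were used with build mm10. What each tool did, the annotation, whether strand was used and how libraries were scaled is not given in the sources used. The upper quartile of FPKM was 10.5 to 10.6 in every library. The labels' protocols name a strand-specific mRNA library kit. Whether each library came from a separate mouse is stated only as n = 3, so p-values measure the spread between these samples.

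The 12248 genes that reached 1 FPKM in 3 or more of the 6 libraries were put on the log2(FPKM + 1) scale, which understates changes of low genes, and tested in R 4.3.3 by limma 3.58.1 (moderated statistics with a mean-variance trend, two-sided, Benjamini-Hochberg over all genes, threshold 0.05). The fit was tested on simulated data. Values of low genes fell on whole multiples of a step, to 1%, in 79.2% of cases, which gave the depth estimate from 220 genes (quartiles 7240000 and 8000000 for diet replicate 1). No count test was run. Alternatives were another pseudocount, filter, scaling or variance model, a replicate block and leaving out each library. The members and gene lists were chosen with earlier results of these data known. All members are accounted for, library by library for the ligands, Col1a1, Col3a1, Col4a1, Fn1, Acta2, Timp1, members with an unadjusted p under 0.05 and members whose groups did not overlap. From each pathway list up to 3 genes of smallest p are named. Of these, 1 gene is not reported here. Other members shown library by library were chosen after their values were seen. Plots used Python 3.11.15 and matplotlib 3.10.9.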

Additional observations from a re-analysis of the deposited data

How the results depend on the processing

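No member passed under any of the 16 other settings (0 in each), the smallest adjusted p being 0.0898 for Timp3 with array weights (limma). The count of genes changed among all tested, 31 here, was 1 with no filter on low values, 20 with a filter of 5 FPKM, 47 with upper-quartile scaling, 50 with total FPKM scaling, 61 with a robust trend, 123 with array weights, and 2 to 66 with 1 library left out. Among pathway genes 0 passed, and 1, Pcolce2, which passed the filter only through the group where it is high, did with upper-quartile scaling, total FPKM scaling, no mean-variance trend, a robust trend or array weights, and 0 to 1 with a library left out. Of 28 members, 14 kept their direction in every setting tried and 14 turned in at least 1. With array weights Col6a3 was at 0.035, Sparc at 0.025 and Thbs1 at 0.057 on the log2 scale. With 1 library left out the log2 change ran from -0.44 to 0.0021 for Col1a1, -0.25 to 0.24 for Col1a2, -0.19 to 0.30 for Col3a1, -0.039 to 0.075 for Col18a1, -0.13 to 0.33 for Col6a2, -0.28 to 0.11 for Col6a3, -0.10 to 0.11 for Sparc, -0.30 to 0.031 for Tgfbi, -0.10 to 0.13 for Thbs1, -0.048 to 0.35 for Dcn, -0.48 to 0.072 for Bgn, -0.19 to 0.020 for Loxl2, -0.072 to 0.26 for Tagln and -0.13 to 0.40 for Pdgfra. The cause of these turns was not tested. Same-numbered libraries did not deviate together (correlations -0.05, -0.06 and 0.05), so the numbers were not taken as pairs. With the replicate block 26 genes were called in all, 0 of them members, and Tgfb1 had an unadjusted p of 0.0413. Scaling moved the median of all genes by less than 0.1. Genes near 1 FPKM rest on few fragments.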

Other observations

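The values here were chosen after they were seen. Among the most abundant of the pathway genes were Igfbp7, which encodes a secreted matrix-associated protein, and Spp1, the gene of osteopontin. Igfbp7 was at 1291, 1205 and 1118 FPKM with tofogliflozin and at 1019, 989 and 1202 FPKM on the diet alone. Spp1 was at 587, 476 and 554 FPKM with tofogliflozin, against 387, 484 and 542 FPKM. The groups overlapped for both (limma adjusted p = 0.548 and 0.580). The glomerular chain genes Col4a3 and Col4a5 were at 40.3 ± 3.54 and 42.7 ± 3.79 FPKM and at 8.03 ± 0.901 and 7.50 ± 0.394 FPKM (tofogliflozin and diet).

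Mgp, the gene of matrix Gla protein of vessel walls, was at 107, 82.1 and 46.4 FPKM with tofogliflozin, against 94.2, 95.04 and 94.6 FPKM. Fbln5, an elastic fibre gene, was at 16.1, 11.6 and 5.52 FPKM with tofogliflozin and at 9.10, 8.74 and 10.4 FPKM on the diet alone. In both, tofogliflozin replicate 1 was the highest and replicate 3 the lowest of the libraries.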
